A study of Mus musculus with 14 samples.

Results

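Klf9 mRNA was higher in the Dio3-/- fetal brain than in the Dio3+/+ brain at both gestational ages examined, by 1.69-fold at E13.5 and 2.87-fold at E18.5, while none of the other 9 Krüppel-like factors set beside it passed the test at either age. The 10 genes are Klf2, Klf3, Klf4, Klf6, Klf7, Klf9, Klf10, Klf12, Klf13 and Klf15. They were chosen by symbol from the 41934 genes that the authors' deposited tables list for each age, and each symbol named a single entry.

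RNA was sequenced from whole brains of individual male fetuses on a C57BL/6J background, littermates from matings of Dio3+/- mice. At E13.5 there were 4 Dio3+/+ and 2 Dio3-/- fetuses, and at E18.5 there were 3 Dio3+/+ and 5 Dio3-/- fetuses. Dio3 encodes the type 3 deiodinase, the enzyme that inactivates thyroid hormones. The Dio3-/- mice carry point mutations that abolish the activity of the enzyme and leave its mRNA in place, in all cells and from conception. Dio3 mRNA therefore does not check the genotype labels. Its log2 fold change was -0.89 (SE 0.23, adjusted p = 0.00584) at E13.5 and 1.10 (SE 0.15, adjusted p = 8.45e-10) at E18.5.

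Krüppel-like factors are transcription factors that bind CACCC and GC-rich elements in DNA through zinc fingers near their carboxyl end. Outside the fingers they differ: some mainly activate transcription, some recruit the corepressor CtBP and some recruit the corepressor SIN3A. Klf9 is a direct target of the thyroid hormone receptor in neural cells and is also induced by glucocorticoids, and it takes part in the maturation of neurons. Others of the family serve blood vessels (Klf2 and Klf4), axon growth (Klf6 and Klf7) and metabolism (Klf15).

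The tables hold, for each gene and age, a mean normalized count over the libraries, the log2 of the ratio between genotypes and the standard error (SE) of that log2 value. They hold no value for a single fetus, so library depths are unknown, and neither the overlap between groups nor a library that stands apart could be examined. For E18.5 the authors report that a Dio3+/+ sample grouped among the Dio3-/- samples when samples were clustered. The SE comes from the authors' DESeq2 model as a single value per gene and age. It covers both genotypes and does not show how far fetuses of a group varied. P-values for genotype come from the log2 fold change divided by its SE (a Wald statistic), set against a normal distribution and adjusted by the Benjamini-Hochberg method over all genes kept by a filter on low counts. A gene is called changed at an adjusted p under 0.05. With 2 Dio3-/- fetuses at E13.5, the SE of that age itself rests on few animals.

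Klf9 (ENSMUSG00000033863.2) lies on the plus strand of chromosome 19, from 23141226 to 23168134 (GRCm38, GENCODE), and its annotated exons cover 4815 bases. Since the results turn on a single gene of a family with like zinc fingers, the stretch that encodes the 3 fingers is shown for Klf9 and for Klf13, the member nearest to it there. Capitals mark the bases that differ between the pair. In Klf9 the stretch is coding sequence that starts in exon 1 of 2 (chr19:23142187-23142259) and ends in exon 2 (chr19:23164683-23164852), on the plus strand. In Klf13 it is coding sequence on the minus strand, again in exon 1 (chr7:63937967-63938039) and exon 2 (chr7:63891628-63891797).
Klf9: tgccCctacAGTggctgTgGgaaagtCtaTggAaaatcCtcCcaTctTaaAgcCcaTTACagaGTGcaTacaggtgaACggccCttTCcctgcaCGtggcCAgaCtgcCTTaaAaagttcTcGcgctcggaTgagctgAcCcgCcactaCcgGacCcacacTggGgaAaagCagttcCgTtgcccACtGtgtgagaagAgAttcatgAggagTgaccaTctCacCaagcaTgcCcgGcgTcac
Klf13: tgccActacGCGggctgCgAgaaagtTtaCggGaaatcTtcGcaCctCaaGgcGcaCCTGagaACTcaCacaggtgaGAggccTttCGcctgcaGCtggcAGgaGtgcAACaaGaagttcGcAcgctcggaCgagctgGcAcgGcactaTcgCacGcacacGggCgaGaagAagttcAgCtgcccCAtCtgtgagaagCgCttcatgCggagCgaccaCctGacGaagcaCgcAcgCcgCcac

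Of the 243 bases, 177 (72.8%) were identical between Klf9 and Klf13, and the differing 66 were spread so that the longest identical run was 9 bases. The other members had between 57.2% (Klf4 and Klf7) and 64.6% (Klf10) of these bases in common with Klf9, with a longest identical run of 14. The reads were 75 bases long. No run of 75 bases in the annotated transcripts of Klf9 occurred in a transcript of any other gene, and the same was true of Klf2, Klf4, Klf6, Klf10, Klf13 and Klf15. Klf7 is the uncertain member: 37.6% of its 75-base words were also those of Gm26649, a gene on the opposite strand that overlaps 3196 of its exonic bases, and reads were counted without regard to strand, so reads there cannot be assigned. For Klf3 and Klf12 the shared words made up 2.88% and 3.89%. Klf3 overlaps Gm20033, on the opposite strand, by 404 bases.

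The proximal promoter of Klf9, from 250 bases before the start of the gene to 50 bases after it, is shown because it is the promoter of the called member (RefSeq, GRCm38.p6, chr19:23140976-23141275, plus strand). Capitals mark the CACCC element, the letters that Krüppel-like factors themselves bind.
Klf9 promoter: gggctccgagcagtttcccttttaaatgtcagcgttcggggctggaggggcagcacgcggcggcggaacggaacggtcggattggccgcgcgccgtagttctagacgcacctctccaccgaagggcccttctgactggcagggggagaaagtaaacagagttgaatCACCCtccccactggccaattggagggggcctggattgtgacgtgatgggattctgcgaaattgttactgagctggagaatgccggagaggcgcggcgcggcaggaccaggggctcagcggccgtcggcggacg

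Promoters of 9 of the 10 members were matched in the RefSeq table, all except Klf10. The window of Klf12 (chr14:100149747-100150046, minus strand, GC content 45.7%) lies far inside the gene as GENCODE gives it, from 99870632 to 100284679. It may thus miss the main promoter of that gene. The window of Klf7 (chr1:64121340-64121639, minus strand) also lies inside its GENCODE gene, from 64029447 to 64122282, though nearer to the start. Searched on both strands, CACCC was present in 7 of these 9 promoters and in 57.5% of all 32851 promoters of the same length. GGGCGG, a GC box bound by SP factors, was present in 7 of 9 and in 35.7% of all promoters. AGGTCA, the hexamer recognised by nuclear receptors including those for thyroid hormone, was present in 0 of 9 and in 16.3% of all promoters. Sequence outside these windows was not searched, so the count does not tell whether a member has a receptor site. Matches of different motifs can share bases. The Klf9 window had 1 CACCC, no GGGCGG and a GC content of 63.3%.

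At E13.5 the filter kept 16436 genes, all 10 members among them, and 585 genes (3.56%) were called, 203 (1.24%) of them higher and 382 (2.32%) lower in Dio3-/- brains. At E18.5 it kept 17607 genes, again with all 10 members, and 242 (1.37%) were called, 169 (0.96%) higher and 73 (0.415%) lower. Among the members 1 of 10 was called at each age, and at both ages it was Klf9. No test was made over the list of members.

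**Figure D1:**
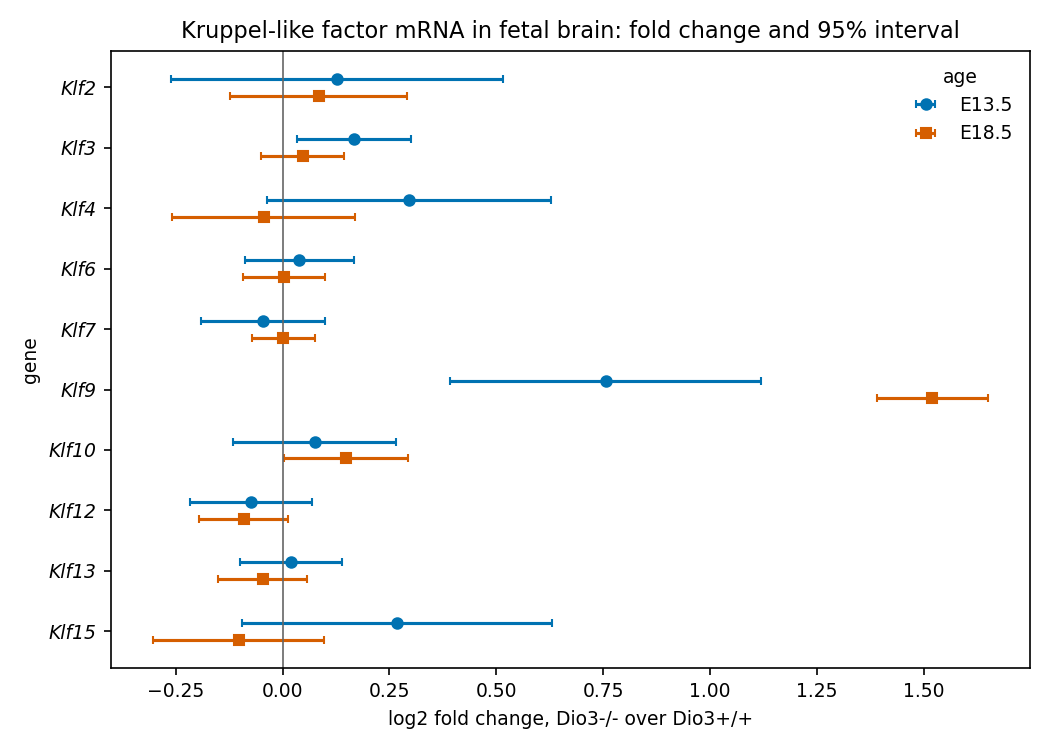
Log2 fold change of each Krüppel-like factor in Dio3-/- over Dio3+/+ brains (horizontal axis), at E13.5 (blue circles; 4 Dio3+/+, 2 Dio3-/-) and E18.5 (orange squares; 3 Dio3+/+, 5 Dio3-/-), with 95% intervals from the SE. Klf9 lies at 0.76 and 1.52, and the other 9 genes lie between -0.10 and 0.30.

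In the brains of E13.5 fetuses, Klf9 had a mean normalized count of 139.5, and its level was 1.69-fold higher in Dio3-/- than in Dio3+/+ (95% interval 1.31 to 2.17; log2 fold change 0.76, SE 0.19; adjusted p = 0.00319). The mean count and the fold change together give 113.5 normalized counts in Dio3+/+ and 191.6 in Dio3-/-. Klf9 ranked 235 among the kept genes by the size of its Wald statistic. The call depends on the reference distribution: when the statistic was set against a t distribution (4 degrees of freedom) over the same 16436 genes, the adjusted p was 0.962. No gene of the table was called in that setting, where the smallest adjusted p was 0.241. It therefore does not set Klf9 apart from other genes called by the Wald test.

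The E13.5 groups also differed in regional and cell type markers. In whole tissue, fewer cells of a type and less RNA per cell cannot be told apart. Of 15 telencephalon markers all 15 were lower and 14 were called lower (median log2 fold change -1.64; summed level 32804 normalized counts in Dio3+/+ and 16981 in Dio3-/-). Of 11 hindbrain and spinal cord markers that passed the filter all 11 were higher and 5 were called. Over all 13 markers of that list, the filtered ones included, the summed level was 2416 in Dio3+/+ and 7264 in Dio3-/-. Of 13 leptomeninges and mesenchyme markers 12 were higher and 1 was called (Dcn; summed level 31089 and 49567). Of 8 erythroid markers 3 were called lower. Xist, expressed from the inactive X chromosome of females, was higher in Dio3-/- brains labelled male (log2 fold change 3.93, SE 1.11, adjusted p = 0.0169). Of the Y-linked genes Kdm5d was lower (-0.41, SE 0.07, adjusted p = 1.03e-05). The rest were not called by the Wald test: Uty (-0.15, adjusted p = 0.552), Ddx3y (-0.12, adjusted p = 0.644) and Eif2s3y (-0.004, adjusted p = 0.989). The part of the regional, cell type, Xist and Kdm5d differences in the value of Klf9 at E13.5 was not tested.

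At E18.5 the same gene had a mean normalized count of 1153 and was 2.87-fold higher in Dio3-/- brains (95% interval 2.62 to 3.14; log2 fold change 1.52, SE 0.07; adjusted p = 2.57e-111). The implied levels were 532 normalized counts in Dio3+/+ and 1526 in Dio3-/-. Klf9 had the largest Wald statistic of the 17607 kept genes and ranked 10 by log2 fold change. Its SE was larger than that of 92.4% of the 500 genes nearest to it in mean count. Against a t distribution (6 degrees of freedom) over the same genes the adjusted p was 0.00810, and Klf9 was the only gene called (1 of 17607). None of the 15 telencephalon markers was called at this age by the Wald test, 3 had an unadjusted p under 0.05, and their summed level was 42903 in Dio3+/+ and 42463 in Dio3-/-. Of 6 erythroid markers 2 were called lower, of 13 leptomeninges and mesenchyme markers 2 were called higher (Dcn and Col3a1), and Xist had a log2 fold change of 1.43 (SE 0.99, adjusted p = 0.837).

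**Figure D2:**
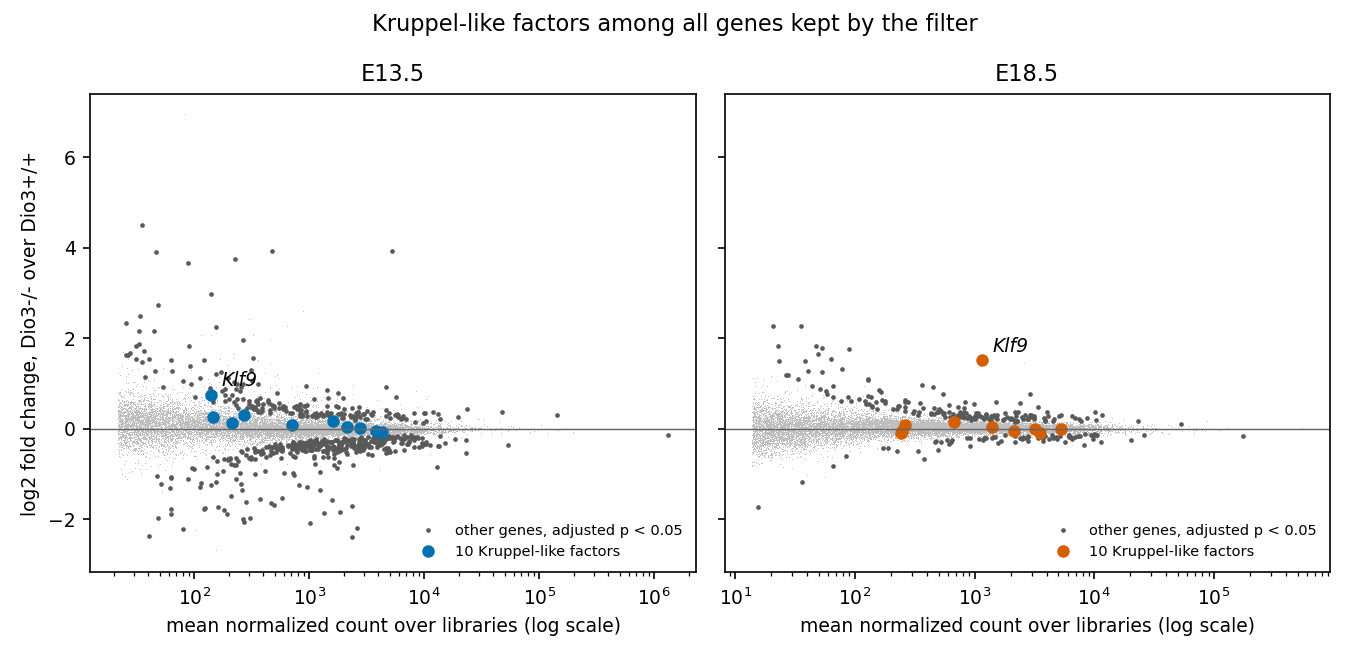
Mean normalized count over all libraries of an age (horizontal, log scale) against log2 fold change, Dio3-/- over Dio3+/+ (vertical), for every gene kept by the filter at E13.5 (left) and E18.5 (right). Light points are genes not called, dark points are other called genes and large coloured points are the 10 Krüppel-like factors, where Klf9 stands at a mean count of 139.5 on the left and 1153 on the right.

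The difference between the ages was itself tested. The log2 fold change of Klf9 was larger at E18.5 than at E13.5 by 0.76 (SE 0.20, 95% interval 0.38 to 1.15; adjusted p = 0.0101), in a comparison that called 347 of 17793 genes (1.95%). Against a t distribution (10 degrees of freedom) the adjusted p was 0.295, and 9 genes in all were called. No other member was called for such a difference. The largest of the rest were Klf15 (-0.37, SE 0.21, adjusted p = 0.589) and Klf4 (-0.34, SE 0.20, adjusted p = 0.612), whose fold changes were above 0 at E13.5 and below 0 at E18.5.

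Levels of different genes were compared per kb of annotated exon, within each age, since counts were normalized within an age. The place of Klf7 depends on the exonic bases that overlap Gm26649 and cannot be assigned: in Dio3+/+ brains at E13.5 it had 470 normalized counts per kb over all its exonic bases and 775 over the 4931 bases that no other gene overlaps, a measure added after its values were seen. Of the other 9 genes Klf12 was the most abundant, with 622 per kb, and was followed by Klf6 (478), Klf13 (364), Klf10 (166), Klf3 (137), Klf2 (112), Klf4 (82.7), Klf15 (49.1) and Klf9 (23.6). Klf9 was the least abundant by either measure. It was also the least abundant in Dio3-/- brains of that age, with 39.8 per kb.

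In Dio3+/+ brains at E18.5 Klf7 had 644 normalized counts per kb by the first measure and 1061 by the second, and Klf6 had 728 by both. Klf9 ranked 8 of the 10 with 111 per kb, between Klf3 (121) and Klf15 (90.2). In Dio3-/- brains of the same age Klf9 had 317 per kb and ranked 4, above Klf13 (279) and below Klf12 (494). These ranks of Klf9 were equal under both measures. Against the median of the 10 genes, a ratio that does not depend on scaling between ages, the per-kb level of Klf9 was 0.155 in Dio3+/+ and 0.242 in Dio3-/- brains at E13.5, and 0.767 and 1.42 at E18.5. Klf9 is itself 1 of the 10 genes. Its move from rank 8 to rank 4 at E18.5 also raised the median, so the ratio understates its rise between genotypes at that age. The tables give no error for a level, so whether neighbours in these orders differ was not tested.

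**Figure D3:**
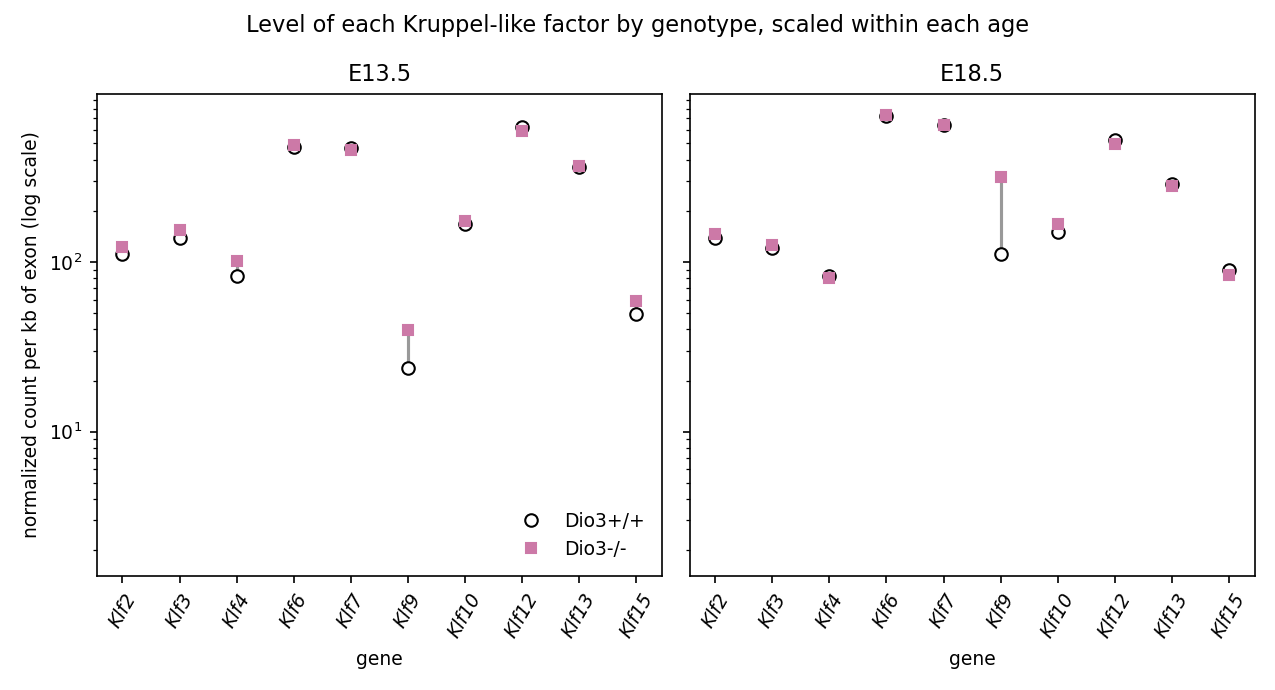
Normalized count per kb of annotated exon (vertical, log scale) of each Krüppel-like factor in Dio3+/+ (open circles) and Dio3-/- (filled squares) brains at E13.5 (left) and E18.5 (right), computed from the mean count and the fold change, with a line joining the genotypes. The level is over all exonic bases, which affects Klf7. Klf9 is the lowest gene on the left, at 23.6 and 39.8, and is at 111 and 317 on the right.

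Klf10 and Klf13 share with Klf9 the ability to recruit SIN3A. Klf10, an early gene of the response to TGF-beta, had log2 fold changes of 0.08 (SE 0.10, adjusted p = 0.881) at E13.5 and 0.15 (SE 0.07, adjusted p = 0.596) at E18.5. The E18.5 interval in folds, 1.00 to 1.23, did not reach that of Klf9. Klf13, the nearest member by zinc finger sequence, had log2 fold changes of 0.02 (SE 0.06, adjusted p = 0.957) and -0.05 (SE 0.05, adjusted p = 0.967). At E18.5 its interval in folds was 0.901 to 1.04.

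Klf2, Klf4, Klf6 and Klf7 belong to the mainly activating group. Klf2, which maintains quiescence in endothelial cells and lymphocytes, had log2 fold changes of 0.13 (SE 0.20, adjusted p = 0.904) at E13.5 and 0.09 (SE 0.11, adjusted p = 0.974) at E18.5. Klf4, a pluripotency factor also active in epithelium and endothelium, had 0.30 (SE 0.17, adjusted p = 0.519) and -0.04 (SE 0.11, adjusted p = 0.998). These were imprecise measurements: at E13.5 the SE of Klf2 and Klf4 was larger than that of 93.0% and 88.8% of genes of similar count, and a call would have needed a fold of 1.53 and 1.44. Klf6, induced on injury and active in axon growth, had 0.04 (SE 0.07, adjusted p = 0.909) and 0.00 (SE 0.05, adjusted p = 0.998). Klf7, a neuronal factor of axon outgrowth, had -0.05 (SE 0.07, adjusted p = 0.906) and 0.00 (SE 0.04, adjusted p = 0.999), with the uncertainty of its antisense overlap. At E18.5 the interval of Klf7 was 0.952 to 1.05 in folds.

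Klf3 and Klf12 are repressors that bind CtBP. Klf3, which acts in red cell and fat cell differentiation, had the lowest adjusted p of the 9 genes at E13.5 (log2 fold change 0.17, SE 0.07, adjusted p = 0.203), and 0.05 (SE 0.05, adjusted p = 0.957) at E18.5. Klf12, first described as a repressor of the AP-2 alpha gene, was below 0 at both ages, at -0.07 (SE 0.07, adjusted p = 0.817) and -0.09 (SE 0.05, adjusted p = 0.729). Klf15, a regulator of glucose and amino acid metabolism that glucocorticoids induce, had 0.27 (SE 0.19, adjusted p = 0.664) and -0.10 (SE 0.10, adjusted p = 0.955).

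For these 9 genes the median log2 fold change was 0.08 at E13.5, where that of all kept genes was -0.01, and 0.00 at E18.5, where that of all kept genes was 0.00. Without adjustment, the Wald test gave a p under 0.05 to 1 of these genes at each age, Klf3 at the earlier and Klf10 at the later. Over all kept genes the share with such a p was 11.98% at E13.5 and 8.04% at E18.5, against which 1 of 9 does not stand out. Their 95% intervals ran from 0.835-fold to 1.55-fold at E13.5 and from 0.810-fold to 1.23-fold at E18.5. The smallest fold that would have been called differed by gene and ranged from 1.14 (Klf13) to 1.53 (Klf2) at E13.5 and from 1.09 (Klf7) to 1.29 (Klf4) at E18.5.

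The 16 other genes of the KLF and SP family were examined in the same way. At each age 13 passed the filter, not the same 13: Klf17 and Sp6 passed at neither, Klf14 only at E18.5 and Klf1 only at E13.5. At E13.5 none of the 13 was called higher and 4 were called lower, where 2.32% of all kept genes were called lower. Without adjustment the Wald test gave 8 of the 13 a p under 0.05. Over all kept genes that share was 11.98%. Sp9, a factor of the developing interneurons of the ventral telencephalon, was 0.421-fold of its Dio3+/+ level (log2 fold change -1.25, SE 0.14, adjusted p = 1.36e-15). Sp8, which acts in the same lineages and in forebrain patterning, had a log2 fold change of -0.39 (SE 0.09, adjusted p = 0.00249). The widely expressed Sp3 and the neuronal Sp4 had smaller differences, of -0.20 (SE 0.06, adjusted p = 0.0185) and -0.24 (SE 0.07, adjusted p = 0.0319). The telencephalon markers given above were lower in the same libraries, and their part in the values of Sp8 and Sp9 was not tested.

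At E18.5 the Wald test called 0 of the 13 genes that passed there, with 0 at an unadjusted p under 0.05. Sp9 and Sp8 then had log2 fold changes of 0.09 (SE 0.08, adjusted p = 0.936) and 0.15 (SE 0.10, adjusted p = 0.808). The change of the genotype effect between ages was 1.34 for Sp9 (adjusted p = 5.22e-13) and 0.54 for Sp8 (adjusted p = 0.00666), and both were called. The median log2 fold change was -0.20 over the genes that passed at E13.5 and -0.04 over those that passed at E18.5. Of 11 genes for corepressors and ubiquitin ligases that act with Krüppel-like factors 0 were called at either age by the Wald test, with 0 at an unadjusted p under 0.05 at both ages, and the medians were -0.04 and 0.02.

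**Figure D4:**
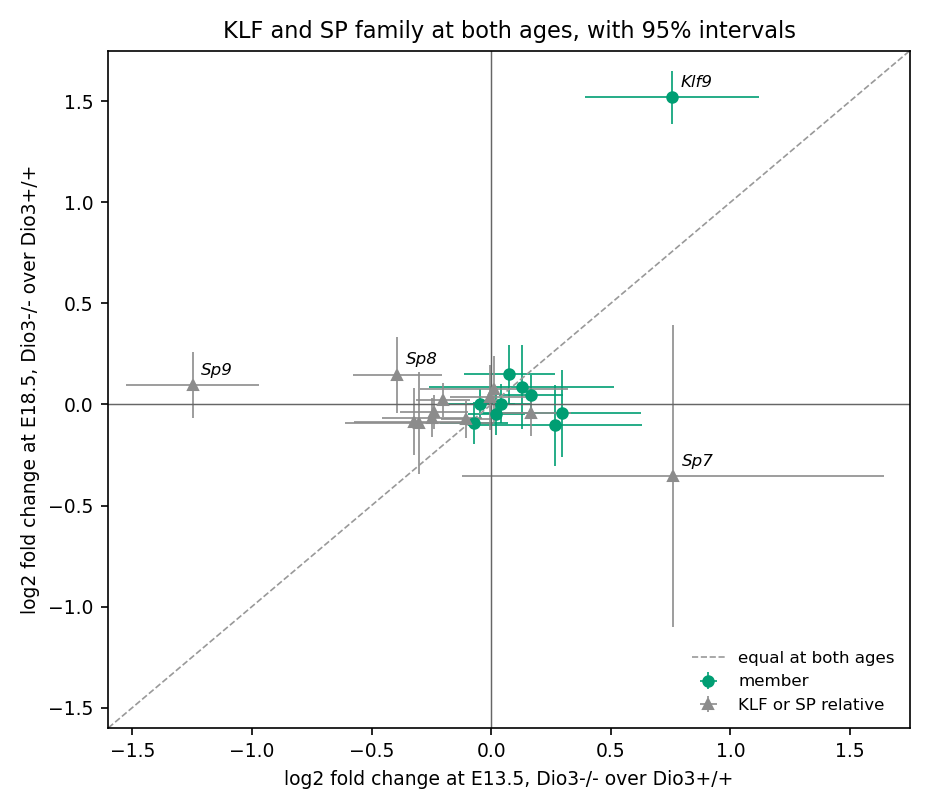
Log2 fold change, Dio3-/- over Dio3+/+, at E13.5 (horizontal) and E18.5 (vertical) for the 10 Krüppel-like factors (green circles) and the KLF and SP genes that passed the filter at both ages (grey triangles), with 95% intervals and a dashed line of equal change. Klf9 lies above the line at 0.76 and 1.52, Sp9 lies at -1.25 and 0.09, Sp8 at -0.39 and 0.15, and Sp7, a low-count gene named here after its values were seen, at 0.76 and -0.35.

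Klf9 belongs to the genes that thyroid hormone induces in brain, and 10 others of these were set beside it. At E13.5 0 of the 10 were called by the Wald test, with 2 at an unadjusted p under 0.05 (11.98% of all kept genes had one), and the median log2 fold change was 0.16. Mgp, which encodes matrix Gla protein, had the smallest p (log2 fold change 1.54, SE 0.49, adjusted p = 0.0503). At E18.5 all 10 were higher and 6 were called, where 0.96% of all kept genes were called higher, and the median was 0.49. Without adjustment the Wald test gave 9 of them a p under 0.05, and 8.04% of all kept genes. Hr, a corepressor of nuclear receptors, rose by a log2 fold change of 0.97 (SE 0.09, adjusted p = 6.57e-21). Dbp, a circadian transcription factor, had 0.80 (SE 0.13, adjusted p = 6.57e-07) and Sema7a, a semaphorin, had 0.38 (SE 0.05, adjusted p = 3.76e-10). The study had picked several of these genes for their response to the hormone, so their direction is not independent evidence.

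Glucocorticoids also induce Klf9 and Klf15. Of 13 glucocorticoid-induced genes that passed the filter at E13.5 0 were called by the Wald test, with 2 at an unadjusted p under 0.05 and a median log2 fold change of 0.00. At E18.5 1 of 14 was called higher, Sgk1, which encodes a kinase that regulates ion transport (0.22, SE 0.06, adjusted p = 0.0229), and the median was 0.07.

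Other lists were drawn up for the settings in which the remaining members act. Of 13 endothelial markers, the cells in which Klf2 and Klf4 are active, 0 were called at E13.5 by the Wald test, with 1 at an unadjusted p under 0.05 and a median of 0.12. At E18.5 1 of the 13 was called, Flt1 (0.34, SE 0.07, adjusted p = 0.000883), and the median was -0.01. Among 6 shear-responsive targets of KLF2 and KLF4 that passed the filter 0 were called at E13.5 by the Wald test, with 1 at an unadjusted p under 0.05, and 1 at E18.5, Thbd (0.32, SE 0.08, adjusted p = 0.0126). Of the immediate early genes, Jun was called lower at E13.5 (-0.24, SE 0.07, adjusted p = 0.0254) and higher at E18.5 (0.28, SE 0.06, adjusted p = 0.000232), and no other of the 11 and 13 that passed the filter was called. Of 7 astrocyte markers that passed the filter at E13.5, 5 were higher and 2 lower, with Aldh1l1 called higher and Fgfr3 called lower. At E18.5 all 10 astrocyte markers were higher, with a median of 0.08. Only Gfap, the astrocyte filament gene, was called there by the Wald test (0.45, SE 0.09, adjusted p = 0.000558). None of 10 microglia markers was called at either age by the Wald test, 2 had an unadjusted p under 0.05 at the earlier age and 3 at the later, and 9 and 10 of the 10 had values above 0.

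At E13.5 203 of 16436 kept genes were called higher, and at E18.5 169 of 17607 were. Of these, 12 genes, Klf9 included, were called and higher at both ages. The 5 whose pair of log2 fold changes lay nearest to that of Klf9 were Mkx, Abcc4, Bcas1, Sorl1 and Daam2, over the 2 ages. Mkx, a homeobox factor of tendon, had 1.05 (SE 0.33) at E13.5 and 0.62 (SE 0.16) at E18.5, at a distance of 0.949 from Klf9. Abcc4, an efflux transporter, had 0.52 (SE 0.16) and 0.59 (SE 0.10). Bcas1, a marker of newly forming myelin, had 0.62 (SE 0.18) and 0.49 (SE 0.14). Sorl1, a neuronal sorting receptor, had 0.32 (SE 0.08) and 0.49 (SE 0.05). Daam2, a formin of Wnt signalling, had 0.50 (SE 0.12) and 0.36 (SE 0.06). All 5 stood well below Klf9 at E18.5.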

How the data were processed

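Whole brains of 14 male fetuses in 4 groups of genotype and age were sequenced in batches from different laboratories with different kits. The labels do not say which library is in which batch, so no value could be computed within a batch. The authors trimmed the reads (cutadapt 3.1), aligned them to GRCm38 (STAR 2.5.3a), filtered rRNA and tRNA (bedtools 2.26.0), counted them with HTSeq (union mode, strand ignored) on GENCODE VM22 genes, adjusted for batch with ComBat-seq, and compared genotypes within each age with DESeq2 1.30.1 in R 4.0.3. ComBat-seq can change the size and the error of a fold change, and its effect was not tested.

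The deposited mean normalized count is a signal: the average over an age's libraries of counts divided by size factors. Fold changes and SEs, as deposited, are on the log2 scale. The deposited p-value was used only to see which genes have one. The deposited statistic and adjusted p-value were not used.

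The Wald statistic, the filter on mean counts (50 quantiles, smoothed with a span of 0.2; minimum 21.7 at E13.5 and 13.8 at E18.5) and the adjustment by Benjamini and Hochberg were recomputed with Python 3.11.15, scipy 1.17.1 and statsmodels 0.14.6, after checks on simulated data. All tests were two-sided. For the difference between ages, the difference of the log2 fold changes was divided by its SE, the square root of the sum of both squared SEs, over genes with a mean count of at least 10 at both ages. Genotype levels were computed from the mean count, the fold change and the number of fetuses. Coordinates and transcripts came from GENCODE M21, 1 release older than the authors'.

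The members and gene lists were chosen with earlier results of these data known. Named genes are the members, the KLF and SP genes called at either age, at most 3 genes of smallest p in each other list, and Dio3. Also named are the 5 genes nearest to Klf9 by Euclidean distance among those called and changed in its direction at both ages. The Y-linked genes were all named at E13.5, after their values were seen. Alternatives were a t distribution, a statistic divided by its central spread, other count filters, centred fold changes and removal of GC content and length.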

Additional observations from a re-analysis of the deposited data

Results flagged for a closer look

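The genotype effect differed between the ages in 3 genes of the KLF and SP family, by a test of that difference. For Klf9 the log2 fold change of Dio3-/- over Dio3+/+ was larger at E18.5 than at E13.5 by 0.76 (SE 0.20, adjusted p = 0.0101, Wald test), with both values above 0. For Sp8 the difference was 0.54 (SE 0.13, adjusted p = 0.00666), from a value below 0 at E13.5 to one above 0 at E18.5, the latter not called. For Sp9 it was 1.34 (SE 0.16, adjusted p = 5.22e-13), with the same order of signs. Fetuses of the ages were different animals. No group was examined for outlying samples, since the tables hold no value for a single library.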

How the results depend on the processing

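Klf9 was called at E18.5 under every alternative (adjusted p from 2.71e-111 to 0.0150), and at E13.5 (0.00230 to 0.997) and for the difference between ages (0.00795 to 0.295) under each except the t distribution. With 4 degrees of freedom 0 members and 0 KLF and SP relatives were called at E13.5, both with the filter chosen again, which then kept all 31372 genes with a p, and with the filter held (adjusted p of Klf9 0.962), an alternative chosen after seeing the data. In neither of these settings was any gene called, so they do not set the family apart. With 10 degrees of freedom 0 members differed between ages. The relatives called at E13.5 numbered 2, Sp8 and Sp9, when the statistic was divided by its central spread, in place of 4. Sp4 was also not called without a count filter (adjusted p = 0.0593) or with centred fold changes (0.0502). The cause was not tested. Over the other 9 members, 162 alternative adjusted p-values had 0 under 0.05 and a lowest of 0.167. GC content and length explained 0.551% of the variance of the statistic at E13.5 and 3.46% at E18.5. No paired analysis was possible because the tables carry no values per library, and for the same reason no replicate could be left out. Depth per library is unknown, and raw levels were not compared across ages, only ratios among the members within an age.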
